A study of Mus musculus with 8 samples.

Results

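The killer cell lectin-like receptors form a family of surface receptors by which natural killer (NK) cells and some T cells read the state of other cells. They were examined here as the genes whose symbol begins with Klr and goes on with a subfamily letter from a to k and a number, which gave 27 of the 33696 genes in the deposited matrices. Of these, 11 were Klra genes, which encode the Ly49 receptors, 13 members were listed as inhibitory, 9 as activating and 2 as partner chains. The other 3 (Klrg2, Klrb1 and Klrh1) were not assigned a direction. The cells came from ependymomas, tumours of the central nervous system, of EPZFTA-RELA mice with the genotype NestinCreERT2;Fus1;RFPTdT, in which the fusion gene is driven from the Nestin promoter. All 4 gene expression libraries, 2 labelled vehicle IgG and 2 labelled mavrilimumab, shared this genotype. At 3 weeks of age, mice were allocated at random to a single intrathecal dose (5 mg per kg) of control antibody or of mavrilimumab, which binds the receptor for the growth factor GM-CSF at its alpha subunit. The design text gives mice of 6 to 8 weeks, and cells stained for CD45 and the erythroid marker Ter119 were sorted. In the paper, single-cell data of tumours under vehicle or mavrilimumab are placed at recurrence or endpoint. The study pooled tumours for these libraries, and the number in each is not given in the labels, so p-values measure the spread between libraries, which may be technical in part.

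Inhibitory receptors of the family carry a cytoplasmic motif that recruits phosphatases, whereas activating receptors signal through small adaptor proteins such as DAP12 (encoded by Tyrobp) and DAP10 (Hcst). Ly49 receptors bind classical MHC class I molecules, CD94 pairs with NKG2 chains to read a non-classical MHC class I molecule, NKG2D reads stress-induced ligands, and NKR-P1 receptors read C-type lectin-like ligands of the Clec2 family. NK cells express these receptors in a variegated way, and a share of CD8 T cells takes some of them up after activation.

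The Klra genes are related copies on chromosome 6, and reads can be shared between copies, so the level of any single Klra gene is uncertain. On GRCm38.p6 the 27 members lay on chromosome 6, with Klrg2 at 38616329 to 38638815, Klrg1 at 122270596 to 122282833, the Klrb1 genes from 128609227, and the Klra genes up to the end of Klra2 at 131247716. Windows of 80 bases upstream of 5 Klra genes are shown because the genes differed in where they were detected (below) although most of the windows are alike. They are RefSeq sequences of the minus strand, 5′ to 3′, and the capitals mark the run TTTCCTCTTTT, the longest run that the 250 bases before the start of Klra3, Klra4, Klra7 and Klra8 share. These genes were chosen after looking at the sequences. Where a promoter held the run, the window was placed around it, so that it began 119 (Klra4), 120 (Klra8), 129 (Klra7) and 80 (Klra3) bases before the annotated start, and that of Klra1 began 80 bases before it.
Klra4 (chr6:130067311-130067390): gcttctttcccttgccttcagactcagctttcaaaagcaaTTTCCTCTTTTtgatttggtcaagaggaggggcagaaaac
Klra8 (chr6:130129939-130130018): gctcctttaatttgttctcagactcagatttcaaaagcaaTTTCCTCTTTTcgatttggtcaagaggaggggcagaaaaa
Klra7 (chr6:130233372-130233451): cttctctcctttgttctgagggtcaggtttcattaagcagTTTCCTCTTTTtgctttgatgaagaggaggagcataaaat
Klra3 (chr6:130337627-130337706): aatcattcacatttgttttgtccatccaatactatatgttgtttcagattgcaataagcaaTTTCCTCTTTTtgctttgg
Klra1 (chr6:130386875-130386954): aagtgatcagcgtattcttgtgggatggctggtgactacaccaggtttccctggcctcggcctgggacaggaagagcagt
The windows were aligned in pairs with gaps allowed. Those of Klra4 and Klra8, which encode the activating receptors Ly49D and Ly49H, then had 70 of 80 bases identical. Each had 62 of 80 bases identical to that of Klra7, which encodes the inhibitory receptor Ly49G. Without gaps, fewer bases of the Klra7 window match the other windows as printed. Searched on both strands over the 250 bases before the start, the run was found in 8 of the 11 Klra promoters. These include Klra3, Klra4, Klra7 and Klra8, which hold it by definition. It was found in 42 of 32851 mouse promoters in all (0.128%). The window of Klra1, which encodes the inhibitory receptor Ly49A, is shown as one without it.

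The libraries differed widely in size and depth. They held from 24354457 to 148657643 unique molecular identifiers (UMIs) and from 984 to 26746 kept cells, with a median of 3296 to 11759 UMIs per cell. Between 0 and 60 cell barcodes were shared by any 2 libraries. The names inside the T cell receptor files went against their labels. In 3 of 3 the inner sample name gave the other treatment than the label, and 2491 of the 2749 barcodes of the receptor library labelled mavrilimumab 1 were cells of the expression library labelled mavrilimumab 2. Likewise 4867 of the 5659 barcodes of the receptor library labelled mavrilimumab 2 were cells of the expression library labelled mavrilimumab 1, and 182 of the 193 labelled vehicle IgG 1 joined the library of the same title. Levels below are listed in the order vehicle IgG 1, vehicle IgG 2, mavrilimumab 1 and mavrilimumab 2, by the labels of the expression libraries. Free RNA also differed. In barcodes with under 100 UMIs, Klrd1 reached 18.5, 24.0, 102 and 150 CPM (the UMIs of a gene scaled to a common total), the highest of the members in each library, and 2, 4, 10 and 16 members were over 10 CPM.

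Cells were grouped by fixed marker rules. There were 5, 380, 15 and 307 NK cells, 70, 1773, 1967 and 1878 CD8 T cells, 101, 117, 1762 and 414 CD4 T cells, 30, 385, 197 and 239 gamma-delta T cells, and 15, 1395, 40 and 55 innate lymphoid cells (ILC). CD8 T cells were 7.11%, 6.63%, 30.7% and 34.2% of kept cells. NK cells held 574, 725, 1242 and 875 CPM of Ncr1, the receptor the rule used, and between 0 and 6.98 CPM of the T cell receptor gene Trac. The other 9 markers of the NK list, which the rule did not use, were detected in the NK cells of every library. The ILC group was less clean. It held 166 CPM of Trac in the library labelled mavrilimumab 1, against at most 18.8 in the others, and 1597 CPM of the microglial gene P2ry12 in that labelled vehicle IgG 1, against 7.06 to 225. The NK cells of the libraries labelled vehicle IgG 1 and mavrilimumab 1, with 5 and 15 cells, entered no test.

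NK cells held the broadest set of receptors. Of the 27 members, 18 reached a mean over libraries of at least 50 CPM in some lymphoid group, and 17 of these 18 had their highest mean in NK cells, Klrg1 being the exception. These levels are summed over the cells of a group, so that fewer expressing cells and less RNA per expressing cell cannot be told apart. Among inhibitory receptors, Klrc1, which encodes NKG2A, stood at 609, 304, 431 and 388 CPM in NK cells. Klra7 stood at 539, 179, 831 and 440 CPM. Klrb1b, the inhibitory NKR-P1B that binds Clec2d, stood at 174, 701, 144 and 708 CPM. Klrb1b was thus high in both replicate 2 libraries and low in both replicate 1 libraries, whichever the label, while for Klrc1 and Klra7 both replicate 1 libraries were above both replicate 2 libraries. Klra9 stood at 139, 152, 226 and 304 CPM, and Klra1 at 17.4, 55.6, 144 and 84.5 CPM. Klra3, which encodes Ly49C, stood at 0, 63.5, 267 and 143 CPM, where the 0 came from 5 cells. Klrg1, a receptor for cadherins, stood at 34.8, 55.6, 51.3 and 104 CPM.

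Activating receptors were present in NK cells beside them. Klrb1c, which encodes NK1.1, stood at 1252, 746, 872 and 1060.3 CPM, and was found in 58.4% (95% exact interval 53.3 to 63.4) of NK cells of the library labelled vehicle IgG 2 and 64.8% (59.2 to 70.2) of those of mavrilimumab 2 after each cell was thinned to 1000 UMIs, against 0.172% and 0.282% of the microglia of these libraries. Klrk1, which encodes NKG2D, stood at 1235, 613, 1119 and 812 CPM. Klra4 stood at 104, 158, 534 and 221 CPM and Klra8 at 609, 125, 328 and 229 CPM. The highest level of each of these activating Ly49 genes came from a library with 5 or 15 NK cells. Klrb1a stood at 139, 231, 185 and 241 CPM, Klrb1f at 365, 141, 205 and 200, Klri2 at 296, 165, 267 and 240, and Klrc2 at 191, 135, 185 and 160. These 4 activating genes varied less between the libraries than Klrb1b or Klra3. The partner chains followed. Klrd1, which encodes CD94, stood at 452, 567, 760 and 972 CPM in NK cells, and Klre1, which pairs with Klri1 and Klri2 products, at 922, 510, 739 and 853 CPM. Klrb1 reached 226 CPM only in the library labelled vehicle IgG 1, on 13 UMIs in 5 cells, and 4.70 to 10.3 CPM in the others. Klra2, Klra17, Klrg2 and Klrh1 were at most 0.722 CPM in NK cells.

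**Figure D1:**
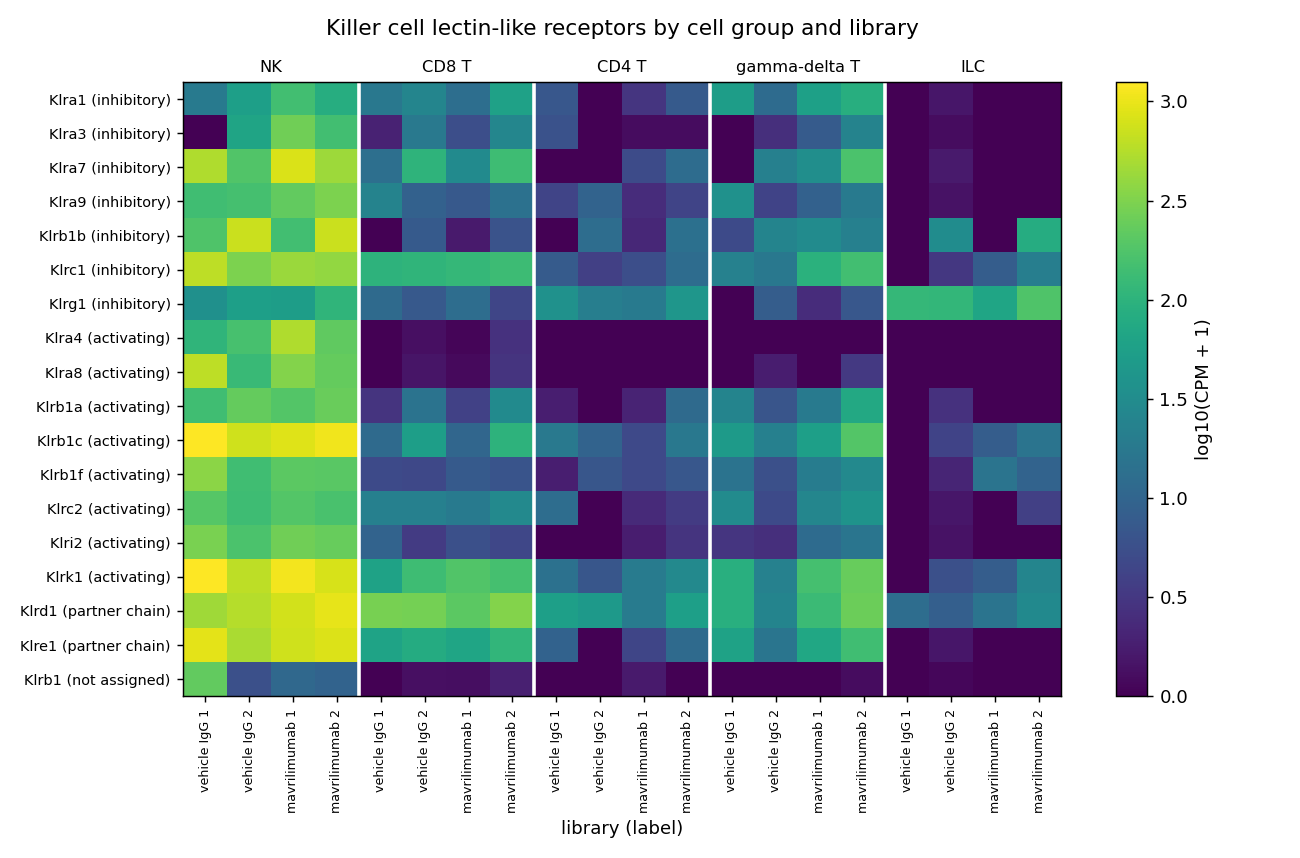
Levels of the 18 named members in the 5 lymphoid groups, with 1 column per library; colour is log10 of CPM plus 1. NK cells are bright across the family, CD8 T cells hold Klrd1, Klrk1 and Klrc1 at 60.6 CPM or more in each library, and ILC are dark for most members, with Klrg1 the brightest in each library.

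NK cells were compared with CD8 T cells of the same library to ask which members mark the one lineage and which both share. Of 23 members tested, 21 were higher in NK cells and 1 was lower, where 6.73% of all 13392 genes were higher and 7.56% lower (edgeR quasi-likelihood test with the library as a block, 2 libraries, FDR 0.05). The activating Ly49 genes were low in CD8 T cells, which in the libraries tested held 2 and 47 UMIs of Klra4 and 3 and 52 of Klra8. They entered the test through NK cells, the group where they were high, with 201 and 919 UMIs of Klra4 and 160 and 951 of Klra8. CD8 T cells held Klra4 at 0, 0.323, 0.0983 and 1.77 CPM and Klra8 at 0, 0.484, 0.197 and 1.96 CPM, so that the groups did not overlap. The log2 fold changes were 7.14 ± 0.23 and 6.95 ± 0.20 (SE). Because of how these 2 genes entered the test, their calls describe the levels and add no support to the count. Klrb1b followed at 0, 6.62, 0.688 and 5.25 CPM in CD8 T cells, a log2 fold change of 6.86 ± 0.16. Klri2 (6.00 ± 0.16), Klrb1f (5.13 ± 0.15), Klra9 (4.35 ± 0.15) and Klrg1 (4.17 ± 0.36) were also higher by over 4 on the log2 scale. Other members differed less. Klrc1 was higher in NK cells by 1.46 ± 0.11 on the log2 scale, Klrd1 by 1.19 ± 0.14, Klra7 by 1.20 ± 0.19 and Klra1 by 0.69 ± 0.16.

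Klra6, which encodes the inhibitory Ly49F, went the other way. It stood at 69.6, 0.784, 10.3 and 10.6 CPM in NK cells, where the first value rests on 4 UMIs, and at 9.78, 31.6, 9.74 and 38.1 CPM in CD8 T cells. In the 2 libraries tested, CD8 T cells were above NK cells, with a log2 fold change of −2.45 ± 0.40 for NK cells against CD8 T cells (edgeR FDR 0.00187). The NK levels of the other 2 libraries were above their CD8 levels. These rest on 4 UMIs (vehicle IgG 1) and 1 UMI (mavrilimumab 1), so little can be read from them. Klra5, another inhibitory Ly49 gene, did not pass (0.96 ± 0.33, edgeR FDR 0.0824). The remaining members tested (Klra3, Klra10, Klri1, Klrb1a, Klrb1c, Klrc2, Klrc3, Klrk1, Klre1 and Klrb1) were higher in NK cells by 2.15 to 3.51 on the log2 scale. In the libraries tested, Klrb1 stood at 0.323 and 0.868 CPM in CD8 T cells against 4.70 and 8.66 in NK cells. Klra10 stood at 1.94 and 1.43 CPM against 4.70 and 9.87. Like Klra4 and Klra8, both entered the test through NK cells, so their calls add no support to the count. Without the library block no member passed, so the calls between NK and CD8 T cells rest on comparing the groups within a library.

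**Figure D2:**
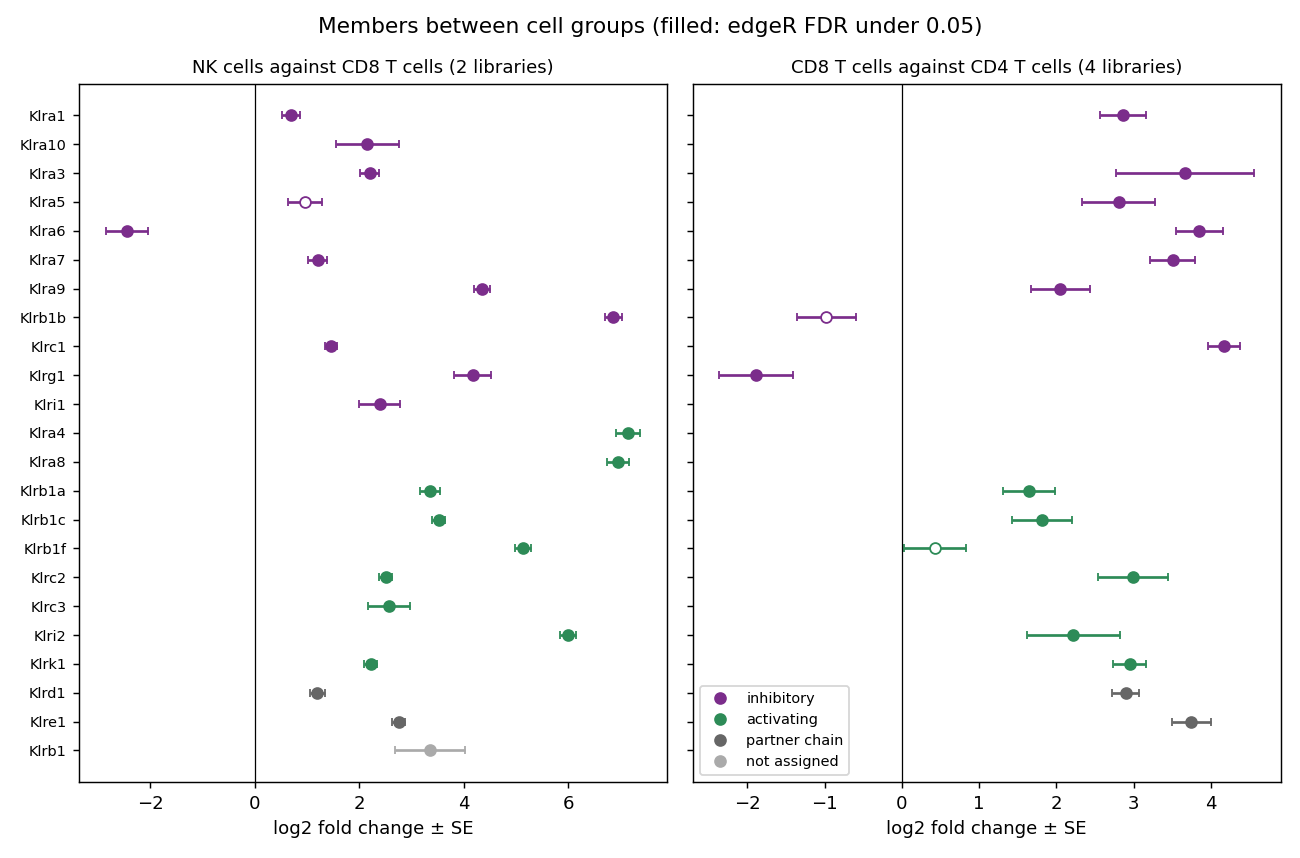
Log2 fold change with its standard error for each member tested, NK against CD8 T cells (left) and CD8 against CD4 T cells (right), coloured by role; filled points passed an edgeR FDR of 0.05. Klra6 is the one filled point left of 0 on the left side, at −2.45, and Klrg1 the one on the right side, at −1.88.

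CD8 T cells carried a narrower set. Klrd1 stood at 286, 283, 208 and 335 CPM in CD8 T cells, Klrk1 at 60.6, 137, 181 and 150, and Klrc1 at 101, 104, 115 and 133. Klrd1 and Klrc1, whose products pair with each other, were at similar levels in all 4 libraries, whereas Klrk1 was lower in that labelled vehicle IgG 1. Klrc1 was found in 8.57%, 9.70%, 9.35% and 9.37% of CD8 T cells thinned to 1000 UMIs, and in 0.0146% of the 6860 neural or tumour cells of the library labelled vehicle IgG 2, which should lack it. Free Klrc1 was higher in the libraries labelled mavrilimumab (66.5 and 50.0 CPM), where it was found in 0 of 200 and 0 of 709 thinned microglia, which allows shares of up to 1.5% and 0.423%. The Ly49 genes Klra7 and Klra1, and Klrb1c, varied more. Klra7 stood at 12.7, 103, 29.4 and 137 CPM, Klra1 at 16.6, 25.0, 12.3 and 58.5, and Klrb1c at 10.8, 53.3, 9.54 and 98.4. The replicate 2 library was the higher of its label for each of these 3 genes, and the treatment labels overlapped. In the library labelled mavrilimumab 1 all 3 were below their free RNA, which stood at 40.6 CPM for Klra7, 14.7 for Klra1 and 23.3 for Klrb1c.

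Against CD4 T cells of the same library, 14 of 17 members were higher in CD8 T cells and 1 was lower, where 6.6% of 11536 genes were higher and 6.09% lower (edgeR, 4 libraries). Klrc1 stood at 6.75, 2.91, 4.51 and 11.5 CPM in CD4 T cells, all below the lowest CD8 value, and the log2 fold change was 4.17 ± 0.21. Klra6 (3.85 ± 0.31), Klre1 (3.75 ± 0.25), Klra7 (3.51 ± 0.29), Klrk1 (2.95 ± 0.22) and Klrd1 (2.90 ± 0.18) were also higher in CD8 T cells. Klra1, Klra3, Klra5, Klra9, Klrb1a, Klrb1c, Klrc2 and Klri2 were higher in CD8 T cells by 1.64 to 3.67 on the log2 scale. Some of the 14 entered the test through CD8 T cells, the group where they were high. CD4 T cells held 1, 0, 7 and 9 UMIs of Klra6 and 0, 0, 6 and 7 of Klri2. They held 6, 0, 2 and 1 UMIs of Klra3 and 0, 0, 0 and 23 of Klra5, which entered mainly through CD8 T cells too. The calls of Klra6, Klri2, Klra3 and Klra5 thus add no support to the count. In CD4 T cells Klrd1 stood at 55.7, 46.6, 18.6 and 55.7 CPM, which in the libraries labelled mavrilimumab was below its level in free RNA, and Klra4 and Klra8 had no UMI in any library. Klrg1 was the exception. It stood at 35.5, 20.4, 18.2 and 41.3 CPM in CD4 T cells against 10.8, 6.30, 11.9 and 3.40 in CD8 T cells, higher in CD4 T cells in 4 of 4 libraries with no overlap (log2 fold change −1.88 ± 0.48, edgeR FDR 0.033). Klrb1b and Klrb1f did not pass. The count fell to 8 without the library labelled mavrilimumab 2 and to 5 without the library block.

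Gamma-delta T cells, here cells with at least 2 UMIs of Trdc, were compared with CD8 T cells in the same way. Of 18 members, 3 were higher in gamma-delta T cells and 1 was lower, where 10.3% of 10333 genes were higher and 8.94% lower (edgeR, 4 libraries), so the share of members called was near that of all genes. Klrb1b stood at 3.99, 23.7, 30.0 and 21.1 CPM in gamma-delta T cells, above the CD8 T cells of the same library each time (2.69 ± 0.60, edgeR FDR 0.0174). Klri1, the inhibitory partner of Klre1, stood at 9.98, 1.58, 12.7 and 24.2 CPM against 0, 1.94, 1.28 and 4.15 in CD8 T cells, where the library labelled vehicle IgG 2 went the other way (2.37 ± 0.56, edgeR FDR 0.0223). Klrb1f stood at 14.0, 4.74, 18.7 and 27.6 CPM (1.59 ± 0.34, edgeR FDR 0.0149). Klra6 was lower, at 0, 4.74, 3.00 and 13.4 CPM (−2.00 ± 0.29, edgeR FDR 0.00312). Only 2 members passed without either library labelled mavrilimumab, 8 without that labelled vehicle IgG 2 and 0 without the library block.

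ILC carried mainly Klrg1. It stood at 114, 113, 65.1 and 173 CPM in ILC, where the first value rests on 19 UMIs held by 6.67% of 15 cells (unthinned). Klrg1 stood at 55.6 and 104 CPM in the NK cells of the libraries labelled vehicle IgG 2 and mavrilimumab 2. Of 22 members tested in those 2 libraries, Klrg1 was the 1 higher in ILC (NK against ILC −0.89 ± 0.21, edgeR FDR 0.036) and 21 were higher in NK cells, where 3.99% of 12306 genes were higher in NK cells and 4.81% lower. Klra4 and Klra8 had no UMI in the ILC of any library. Against a floor of 3 counts in the ILC of a library, Klra4 was at least 379-fold higher in NK cells of the library labelled vehicle IgG 2 and at least 51.1-fold higher in those of mavrilimumab 2, and Klra8 at least 302-fold and 52.8-fold. Klra10, an inhibitory Ly49 gene, also had none in the ILC of these libraries and was at least 11.3-fold and 2.28-fold higher. Most members entered this test through their level in NK cells, since 13 of the 22 had none in the ILC of mavrilimumab 2 and at most 5 UMIs in those of vehicle IgG 2. The lectin receptor Klrb1b was uneven in ILC, at 0, 30.8, 0 and 82.3 CPM, where the zeros come from 15 and 40 cells and 3 counts would have been 17.9 and 21.7 CPM. Without the library block no member passed.

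The balance of inhibitory and activating receptors was given by the inhibitory share, the UMIs of inhibitory members out of those of inhibitory and activating members together. In NK cells it was 28.3%, 39.9%, 36.1% and 42.0% (mean 36.6% ± 6.02, SD, n = 4). In CD8 T cells it was 62.6%, 58.1%, 46.2% and 58.2% (mean 56.3% ± 7.07, n = 4), above NK cells of the same library in 4 of 4. CD4 T cells (60.4% ± 7.21) and gamma-delta T cells (50.8% ± 9.07) lay near CD8 T cells, within 1 SD, and ILC were highest at 87.1% ± 12.2 (SD, n = 4 each). No test was made of this score. It depended on which members were summed. Without the Klra genes it was 25.5% in NK cells and 38.0% in CD8 T cells, but this gap came from the libraries with 5 and 15 NK cells. In that labelled vehicle IgG 2 the shares were then 34.4% in NK and 33.7% in CD8 T cells, and in that labelled mavrilimumab 2 they were 30.9% and 31.4%. In gamma-delta T cells the mean was then 29.4%. Without Klrg1 the share was 43.7% in CD4 T cells and 54.0% in ILC, where the ILC mean is over the 3 libraries with UMIs left (75.0%, 20.0% and 67.0%) and the 20.0% rests on 5 UMIs. With all members, the ILC of the library labelled vehicle IgG 1 gave 100% on 19 UMIs. These were held by 6.67% of its 15 ILC (unthinned), so this value and its part in the ILC mean say little.

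**Figure D3:**
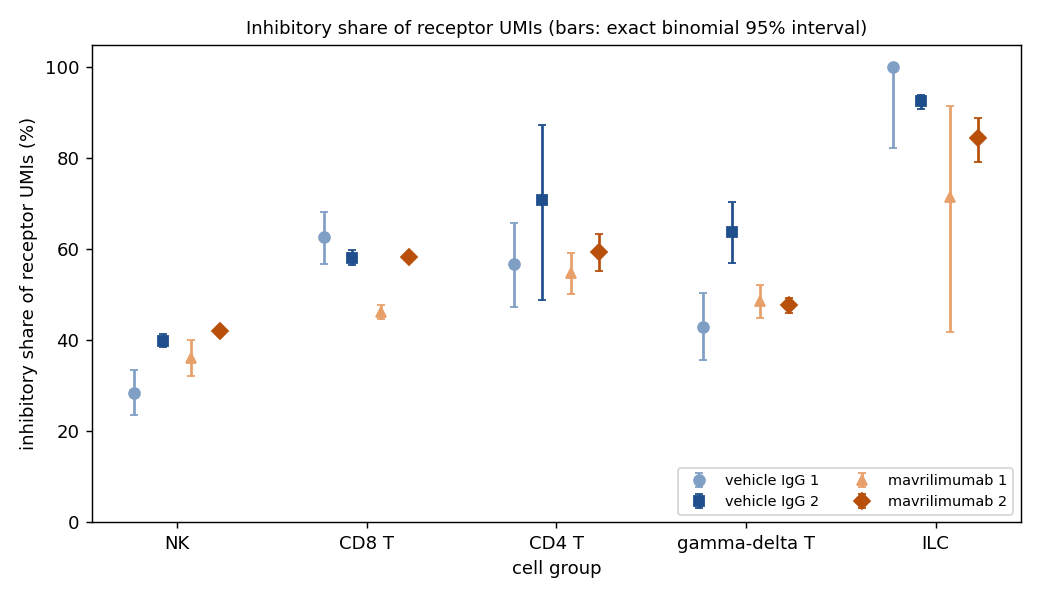
Inhibitory share of receptor UMIs (percent) in each cell group, with 1 point per library and bars for the exact binomial 95% interval, which covers counting error only. NK cells lie between 28.3% and 42.0% and CD8 T cells between 46.2% and 62.6%.

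UMIs of both kinds of receptor were found in the same NK cells. After thinning to 1000 UMIs, 69.2% of NK cells of the vehicle IgG 2 library and 82.1% of those of mavrilimumab 2 had UMIs of at least 1 inhibitory and 1 activating member, against 2.86%, 7.33%, 5.49% and 9.11% of CD8 T cells and at most 0.172% of the microglia of any library. Unthinned, in both replicate 2 libraries, the share of NK cells with Klra7 was lower among those with NKG2A transcript than among those without. Klra7 was in 9.47% of Klrc1-positive and 25.6% of Klrc1-negative NK cells (library labelled vehicle IgG 2), and in 27.9% and 53.3% (that labelled mavrilimumab 2). The activating Klra8 gave 7.69% and 24.2% in the first and 27.3% and 53.3% in the second. Among the 15 NK cells of the library labelled mavrilimumab 1, Klra7 went the other way (55.6% and 50.0%) and Klra8 gave 33.3% in both, and that labelled vehicle IgG 1 had 5 NK cells. In CD8 T cells Klra7 did not follow this order, with 8.38% of Klrc1-positive against 7.84% of Klrc1-negative cells in the library labelled vehicle IgG 2, 6.64% against 1.17% in that labelled mavrilimumab 1 and 12.2% against 7.61% in that labelled mavrilimumab 2. Klra7 and Klra1 went together in CD8 T cells, with Klra1 in 39.7%, 43.1% and 51.5% of Klra7-positive cells of these 3 libraries against 1.10%, 0.731% and 3.63% of the others. In NK cells the same shares were 17.1% and 18.3% against 5.48% and 8.56%, each pair given for vehicle IgG 2 and then mavrilimumab 2. These shares are descriptions over cells of 1 library each, carry no test, and can be moved by reads shared between the copies.

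A part of the CD8 T cells carried Ly49 transcripts together with much of the remaining family. Cells with at least 1 UMI of any Klra gene were 5, 225, 104 and 335 of the CD8 T cells. Thinned to 1000 UMIs, any Klra gene was found in 2.86%, 8.86%, 2.80% and 10.5% of CD8 T cells, against 0.172%, 0.859%, 1% and 0.846% of microglia. This comparison was chosen after the data were seen, and it left out the library labelled vehicle IgG 1, which had 5 such cells. Of the 14 members tested that are not Klra genes, 11 were higher in Klra-positive than in Klra-negative CD8 T cells and 0 were lower, where 1.88% of 11836 genes were higher and 1.85% lower (edgeR with the library as a block, 3 libraries). At an unadjusted p under 0.05, 13 members passed and all 13 were higher, beside 919 of all genes that were higher and 1056 that were lower. Without the library block 3 members passed.

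Klrb1c, Klrb1a and Klrc2 are activating members. Klrb1c stood at 106, 247, 109 and 369 CPM in Klra-positive against 1.08, 16.7, 2.11 and 18.6 CPM in Klra-negative CD8 T cells, with no overlap (log2 fold change 4.39 ± 0.25). Klrb1a stood at 21.2, 78.4, 38.1 and 125 CPM against 0, 2.11, 0.317 and 0.88 (6.53 ± 0.33), where the Klra-negative cells of the libraries tested held 11, 3 and 18 UMIs and the gene entered the test through the Klra-positive cells. Klrc2, which encodes NKG2C, stood at 117, 71.3, 102 and 86.1 CPM against 11.8, 11.7, 11.6 and 10.6 (2.93 ± 0.14). For these 3 activating genes every Klra-positive value lay above every Klra-negative value. The partner chain Klre1 stood at 478, 362, 367 and 399 CPM against 19.4, 25.7, 42.4 and 22.8 (3.69 ± 0.20), whereas Klrk1 (1.33 ± 0.12) and Klrd1 (1.14 ± 0.07) differed less. Klri1, Klri2, Klrb1, Klrb1f and Klrc3 were higher too. All CD8 T cells of the libraries tested held 2, 3 and 23 UMIs of Klrb1 and 12, 13 and 110 of Klri1. Like Klrb1a, both genes thus entered the test through the Klra-positive cells, and the count of members that were higher includes them. The inhibitory Klrc1 stood at 393, 112, 316 and 187 CPM against 71.1, 103, 99.5 and 116 and did not pass (0.84 ± 0.24, edgeR FDR 0.139), nor did Klrb1b and Klrg1.

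Of 4 adaptors tested in this comparison, 2 were higher in Klra-positive cells and 1 was lower. Fcer1g stood at 403, 1007, 562 and 1479.6 CPM in Klra-positive against 1.08, 67.7, 12.9 and 59.8 CPM in Klra-negative CD8 T cells (4.59 ± 0.25), and Tyrobp was also higher (3.51 ± 0.29). Cd247, the zeta chain of the T cell receptor complex, was lower (−0.61 ± 0.10, edgeR FDR 0.0273), and Hcst did not pass. Trac, a constant gene of the T cell receptor, stood at 170, 227, 250 and 279 CPM against 194, 171, 271 and 254. Cd8b1 stood at 775, 358, 466 and 376 CPM against 1449.6, 1104, 1502 and 1440.0, but the rule for CD8 T cells used this gene with a fixed number of UMIs, which deeper cells meet at a lower CPM, so nothing is read from it. Of the 10 NK markers, 4 were higher in Klra-positive cells and 0 were lower (edgeR): Xcl1 (1.96 ± 0.07), Gzmb (1.84 ± 0.07), Cd160 (1.12 ± 0.08) and Tbx21 (0.50 ± 0.10). Ncr1, the receptor that defined NK cells, stood at 0, 5.09, 2.83 and 17.7 CPM and did not pass (4.38 ± 1.08, edgeR FDR 0.093). Klra-positive cells had a higher median depth than Klra-negative cells in 4 of 4 libraries, 3424 against 2644.5 UMIs in that labelled vehicle IgG 2, 6516.5 against 4658 in that labelled mavrilimumab 1 and 17173 against 11630 in that labelled mavrilimumab 2, and its part in the result was not tested.

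**Figure D4:**
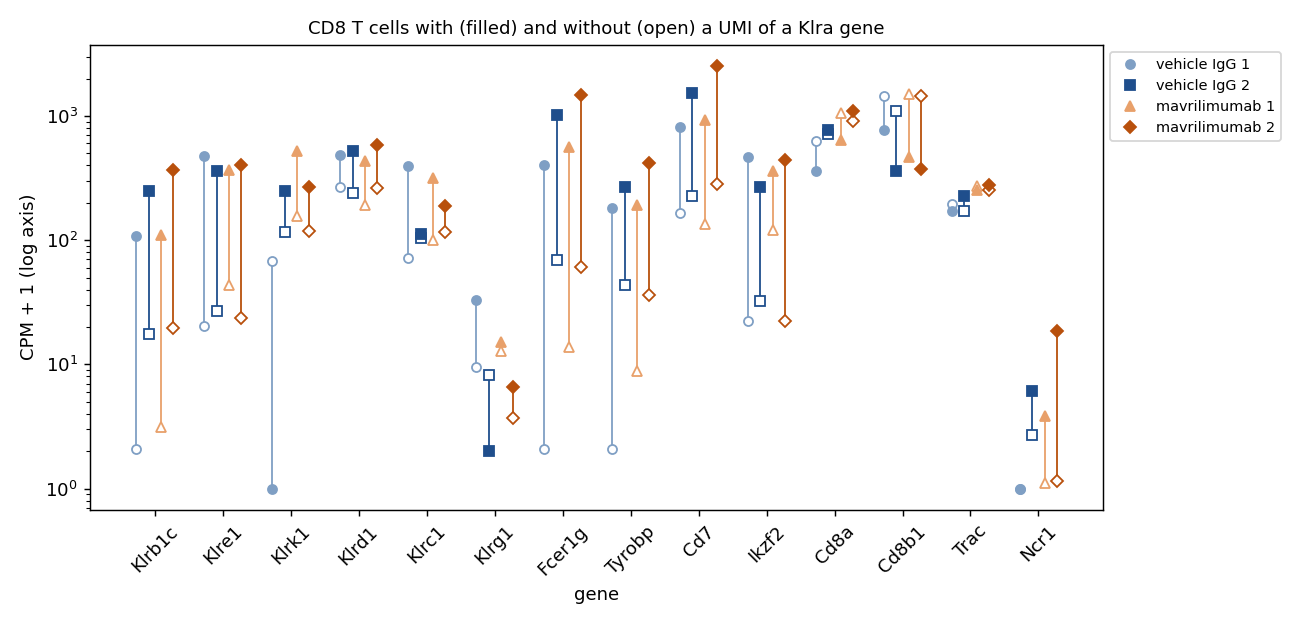
Levels (CPM plus 1, log axis) of members, adaptors and lineage genes in CD8 T cells with (filled) and without (open) a UMI of a Klra gene, joined by a line within each library. Klrb1c, Klre1, Fcer1g and Tyrobp separate the filled from the open points, whereas Trac does not. Cd8b1 is shown as a gene that the rule for CD8 T cells used.

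Clone size was read from the joined T cell receptor files. In the library labelled mavrilimumab 1, 6 of 74 Klra-positive CD8 T cells with a paired receptor were in clones of 3 or more cells (8.11%, exact 95% interval 3.03 to 16.8), against 751 of 1345 Klra-negative cells (55.8%, 53.1 to 58.5). In that labelled mavrilimumab 2 the shares were 30 of 234 (12.8%, 8.82 to 17.8) and 220 of 1079 (20.4%, 18.0 to 22.9). These intervals cover counting error only and treat cells as independent, which cells of 1 clone are not, and no test was made. The library labelled vehicle IgG 1 had 0 of 4 Klra-positive cells. Between CD8 T cells of clones of 3 or more and cells of clones of 1, 1 of 17 members passed, where 0.233% of 10746 genes were called (edgeR, 2 libraries). This was Klra5, at 0 and 0.547 CPM in expanded against 4.56 and 27.2 CPM in single-clone cells of the libraries labelled mavrilimumab 1 and 2 (−5.80 ± 0.50, edgeR FDR 0.0266). Klra5 entered the test through the single-clone cells, the group where it was high, so its call only describes the levels. It rested on 2 UMIs in expanded cells, both in the library labelled mavrilimumab 2, where the ratio of single-clone over expanded cells was 49.7 with an exact 95% interval from 13.7 to 412. Klra7, at 2.60 and 28.7 CPM in expanded against 68.8 and 152 CPM in single-clone cells, did not pass (−3.02 ± 0.39, edgeR FDR 0.0667), nor did Klre1 (−0.89 ± 0.12, edgeR FDR 0.0667). Of the 17 members, 15 had a negative log2 fold change. The count was 0 when clones of 2 or more cells counted as expanded.

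CD8 T cells with a UMI of Pdcd1, which encodes PD-1, differed from those without in 1 of 20 members, where 0.464% of 11853 genes were called (edgeR, 3 libraries). Klre1 stood at 49.5, 48.7 and 80.4 CPM in Pdcd1-positive against 85.6, 75.0 and 121 CPM in Pdcd1-negative cells (vehicle IgG 2 first, then both libraries labelled mavrilimumab), lower in 3 of 3 (−0.67 ± 0.08, edgeR FDR 0.0397). At an unadjusted p under 0.05, 7 members passed, all lower in Pdcd1-positive cells, beside 1737 of all genes, of which 783 were lower, and the median over the 20 members was −0.49 against 0.02 for all genes. No member passed as higher in Pdcd1-positive cells, and 4 of the 20 had a positive log2 fold change. The count ranged from 1 to 5 when a library was left out, with 2 without that labelled vehicle IgG 2 and 5 without that labelled mavrilimumab 2. It was 0 without the library block, 2 with DESeq2 and 6 without the filter on low counts.

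The treatment comparison asked whether the receptors differed between libraries labelled mavrilimumab and vehicle IgG within a cell group. In CD8 T cells, with the levels given above, 0 of 20 members and 0 of 12410 genes passed (0%), and the lowest member FDR was 0.928 (edgeR, 2 libraries against 2). At an unadjusted p under 0.05 there were 524 genes and 0 members. Klrk1 gave 0.77 ± 0.43 and Klrc1 0.33 ± 0.20 on the log2 scale, higher in libraries labelled mavrilimumab, and 4 of 20 members did not overlap with the mavrilimumab label above and 1 with it below, where 14% of all genes did so above and 17.7% below. In CD4 T cells 0 of 9 members and 0 of 10702 genes passed (0%), with 319 genes and 0 members at an unadjusted p under 0.05. In ILC 0 of 6 members passed, where 2.86% of 10105 genes did (edgeR, 1 library labelled vehicle IgG against 2, in which the lone library is assumed to vary like the others). DESeq2 also called 0 members in CD8 T cells, CD4 T cells and ILC. NK cells could not be tested, since 1 library of each label had at least 20 of them.

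In gamma-delta T cells 0 of 15 members and 0 of 9459 genes passed an FDR of 0.05 (0%), while 899 genes and 10 members passed at an unadjusted p under 0.05 (edgeR), and DESeq2 called 1 member. All 10 were higher in libraries labelled mavrilimumab. Klrc1 stood at 22.0, 16.6, 94.5 and 142 CPM in gamma-delta T cells, Klrk1 at 87.8, 22.1, 150 and 235, and Klrd1 at 89.8, 23.7, 128 and 254. For each of these 3 genes the libraries labelled mavrilimumab were above both others. Klra7, at 0, 21.4, 33.0 and 164 CPM, was in the same order, and Klrb1c, at 47.9, 21.4, 54.7 and 184, as well. Free Klra7 RNA stood at 3.12, 13.3, 40.6 and 66.9 CPM, so the Klra7 level in the library labelled mavrilimumab 1 was below it. The log2 fold changes were 2.74 ± 0.35 for Klrc1 (edgeR FDR 0.215), 2.05 ± 0.57 for Klrk1 (edgeR FDR 0.406), 2.00 ± 0.61 for Klrd1 (edgeR FDR 0.433) and 2.94 ± 1.02 for Klra7 (edgeR FDR 0.461). The median over the 15 members was 2.00, against −0.01 for all genes. The libraries labelled mavrilimumab lay entirely above the others for 10 of the 15 members and for 17.2% of all genes tested. An exact permutation test of 2 libraries against 2 cannot give a two-sided p below 0.333.

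Other values moved with this pattern. The summed level of the 10 NK markers in gamma-delta T cells was 629, 404, 1557 and 3628 CPM, with Gzma at 0 in the library labelled vehicle IgG 1. Free RNA carried Klrd1 at 102 and 150 CPM in the libraries labelled mavrilimumab against 18.5 and 24.0 in the others, and Klrc1 at 66.5 and 50.0 against 5.51 and 7.11. Their part in the result was not tested. The library labelled vehicle IgG 1 had 30 gamma-delta T cells. Leaving it out leaves 1 library labelled vehicle IgG, with no spread of its own, so no call is read from that fit. The difference between the change in CD8 T cells and that in gamma-delta T cells was tested as an interaction. It passed for 1 of 19 members, Klrc1 (CD8 minus gamma-delta −2.43 ± 0.27, edgeR FDR 0.0381), where 0.0329% of 12176 genes were called. It was lost with a minimum of 2000 UMIs per cell, with cells of 1 rule, without cells with markers of another class and without the library labelled vehicle IgG 2, where the difference was −2.36, −2.37, −2.38 and −2.18 (edgeR FDR 0.0638, 0.0697, 0.0609 and 0.306). The same test against CD4 T cells called 0 of 20 members and 0 of 13770 genes (0%), with 587 genes and 3 members at an unadjusted p under 0.05 in edgeR, and 0 members in DESeq2. Against ILC, with 1 library labelled vehicle IgG against 2, it called 0 of 22 members, where 1.95% of 15218 genes were called, with 905 genes and 3 members at an unadjusted p under 0.05 in edgeR, and 0 members in DESeq2.

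**Figure D5:**
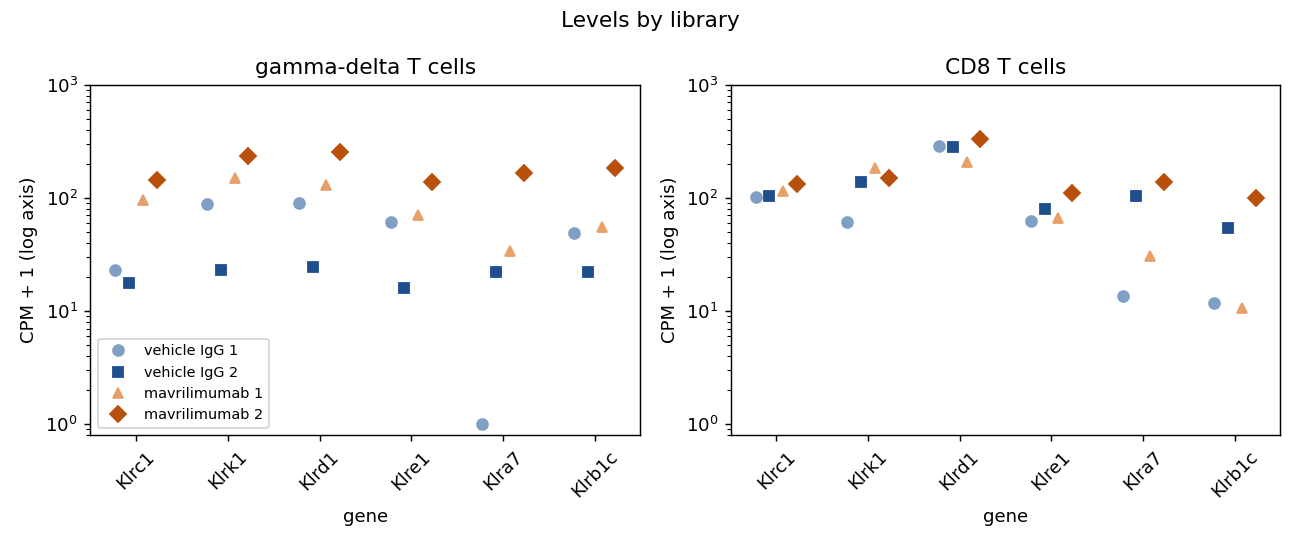
Levels (CPM plus 1, log axis) of 6 members in gamma-delta T cells (left) and CD8 T cells (right), with 1 point per library. In gamma-delta T cells both libraries labelled mavrilimumab lie above both labelled vehicle IgG for each gene, and in CD8 T cells the labels overlap for Klrd1, Klre1, Klra7 and Klrb1c.

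Of 15 adaptor and signalling genes of the pathway tested, 5 were higher in NK than in CD8 T cells and 2 were lower, beside the 6.73% and 7.56% of all genes given above (edgeR). Of 4 adaptors, 2 were higher in NK cells and 1 was lower (edgeR, 2 libraries). Tyrobp stood at 1948, 1249, 2053 and 2332 CPM in NK cells against 17.6, 78.2, 20.8 and 123 CPM in CD8 T cells (4.04 ± 0.13 on the log2 scale). Fcer1g stood at 2418, 2018, 2125 and 2831 CPM against 38.1, 217, 51.1 and 384 CPM (2.96 ± 0.12). Both groups were far apart for these adaptors in every library. Cd247, the zeta chain that T cell receptors use, was lower in NK cells (−1.67 ± 0.13), and Hcst was not called. Of 4 kinases Syk was higher (3.66 ± 0.24) and Lck lower (−0.80 ± 0.13), of 3 phosphatases Inpp5d was higher (0.44 ± 0.11), and of 4 other signalling genes tested Sh2d1b1 was higher (4.46 ± 0.32).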

How the data were processed

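Cells from brain tumours were profiled with 10x Genomics 5′ gene expression libraries. The deposited matrices hold raw counts of UMIs per gene and barcode, unfiltered, and the file headers name Cell Ranger 9.0.1 as the authors' counter; the submitters' processing notes also name Cell Ranger 7 and 7.1.0, Scanpy 1.8.2 and mm10, without roles. The deposited receptor tables hold assembled contigs with counts of UMIs per contig. Of these, 3 were used, each joined to the expression library that held most of its barcodes, and that labelled vehicle IgG 2 was not used here. Kept barcodes had at least 1000 UMIs, 200 to 6000 genes and no more than 10% of UMIs from mitochondrial genes. Cells were grouped as NK (no UMI of Cd3d, Cd3e or Cd3g and at least 1 of Ncr1), CD8 T (at least 1 of Cd3e and 2 of Cd8a and Cd8b1 together), CD4 T (at least 1 of Cd3e and of Cd4, none of Cd8a or Cd8b1), gamma-delta T (at least 1 of Cd3e and 2 of Trdc) or ILC (none of Cd3e or Ncr1, at least 1 of Il7r and 2 of Gata3 and Rora together). A cell could meet 2 rules, which 1, 10, 28 and 40 cells did in the libraries labelled vehicle IgG 1, vehicle IgG 2, mavrilimumab 1 and mavrilimumab 2. The members, lists and comparisons were chosen with earlier results of these data known.

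Counts were summed per library and group, with at least 20 cells required, and compared by edgeR 4.0.16 (R 4.3.3, quasi-likelihood test, TMM, filterByExpr, Benjamini-Hochberg over all genes tested, FDR 0.05), with the library as a block between groups of cells. A standard error is the size of the log2 fold change over the root of its F value. The test was tested on simulated data. Cells were handled with Python 3.11.15, numpy 2.4.6, scipy 1.17.1 and pandas 2.3.3. Members were named if their mean over libraries reached 50 CPM in a lymphoid group or if they passed the FDR, and up to 4 adaptors or ligands with the highest mean were named per list, beside those that passed. Intervals are exact binomial (Clopper-Pearson) at 95% and, like floors of 3 counts, cover counting error only. No doublets were removed. Scrublet (scanpy 1.11.5) marked 1.02%, 6.64%, 0.0156% and 0.128% of cells and had not worked in the libraries labelled mavrilimumab. Sequences are from RefSeq tables of GRCm38.p6, in which 24 of the 27 members had a promoter. Alternatives were other normalization (RLE), DESeq2 1.42.0, no filter, each library left out, 2000 UMIs, cells of 1 rule, Scrublet doublets removed, no library block, the replicate number as a block and, added after seeing the data, leaving out cells with markers of another class.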

Additional observations from a re-analysis of the deposited data

Results flagged for a closer look

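The change of Klrc1, which encodes NKG2A, between libraries labelled mavrilimumab and vehicle IgG differed between CD8 T cells and gamma-delta T cells. The test of the difference itself gave −2.43 ± 0.27 on the log2 scale for CD8 minus gamma-delta T cells (edgeR FDR 0.0381, 2 libraries against 2). With 2000 UMIs, with cells of 1 rule, without cells with markers of another class and without the library labelled vehicle IgG 2 it was −2.36, −2.37, −2.38 and −2.18 and did not pass (edgeR FDR 0.0609 to 0.306). Free Klrc1 RNA moved with it, reaching 66.5 and 50.0 CPM under the mavrilimumab label against 5.51 and 7.11 CPM under vehicle IgG, as did the summed NK markers of gamma-delta T cells (629 and 404 against 1557 and 3628 CPM), and their part in the result was not tested. Klrc1 stood at 101, 104, 115 and 133 CPM in CD8 T cells and at 22.0, 16.6, 94.5 and 142 CPM in gamma-delta T cells, so that the gamma-delta level lay below the CD8 level in both libraries labelled vehicle IgG and in that labelled mavrilimumab 1. Of the 19 members tested, 19 had a negative difference.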

How the results depend on the processing

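Counts of members called are given here. Of 825 values of single members under alternatives, 704 kept their direction and their side of the FDR, 103 lost the call, 18 gained one and 0 turned. Without the library block 0 members were called for NK against CD8 T cells, NK cells against ILC, gamma-delta against CD8 T cells, Pdcd1-positive against Pdcd1-negative and expanded against single-clone CD8 T cells, 5 for CD8 against CD4 T cells and 3 for Klra-positive against Klra-negative CD8 T cells; this fit leaves the differences between libraries in the error. Without the filter on low counts, 9 were called for treatment in gamma-delta T cells, 10 for gamma-delta against CD8 T cells, 6 for Pdcd1, 6 for clone size, 1 for the interaction of CD8 and CD4 T cells and 7 for that of CD8 and gamma-delta T cells. DESeq2 called 1 for treatment in gamma-delta T cells, 2 for Pdcd1 and 2 for the interaction of CD8 and gamma-delta T cells. That interaction also gave 2 with RLE, 2 without Scrublet doublets, and 0 with 2000 UMIs, with cells of 1 rule and without cells with markers of another class, where the FDR of Klrc1 was 0.0609 to 0.0697. RLE and 2000 UMIs each gave 1 for the interaction of CD8 T cells and ILC. Cells of 1 rule gave 3 and clones of 2 or more cells 0 for clone size. Leaving out each library gave 0 to 6 for treatment in gamma-delta T cells, 8 to 13 for CD8 against CD4, 2 to 8 for gamma-delta against CD8 T cells, 1 to 5 for Pdcd1 and 0 to 6 for the interaction of CD8 and gamma-delta T cells; it could not be done for comparisons with 2 libraries or for treatment in ILC. The inhibitory share without the Klra genes was 25.5% in NK, 38.0% in CD8 T, 52.3% in CD4 T and 29.4% in gamma-delta T cells, and without Klrg1 43.7% in CD4 T cells and 54.0% in ILC. The cause of these changes was not tested.

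With the replicate number as a block (replicate block), 0 members were called for treatment in CD8 T, CD4 T and gamma-delta T cells. In NK cells and ILC it could not be fitted. Libraries with the same number deviated together (r 0.43, 0.24 and 0.16 in CD8 T, CD4 T and gamma-delta T cells), but with 2 pairs they share only a number. NK cells are limited by their number, with 5 cells (vehicle IgG 1) and 15 cells (mavrilimumab 1).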

Other observations

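Members of the family were also found outside the lymphoid groups. Of the cells that met no lymphoid rule, 8.77%, 4.68%, 16.3% and 17.9% held a UMI of an inhibitory member (unthinned). For activating members the shares were 3.66%, 3.41%, 15.8% and 15.8%, and for any Klra gene 2.62%, 1.96%, 9.76% and 11.8%. Klra2, which encodes an inhibitory Ly49 receptor, stood at 514, 66.3, 273 and 83.3 CPM in myeloid cells other than microglia (libraries labelled vehicle IgG 1, vehicle IgG 2, mavrilimumab 1 and mavrilimumab 2), and at 0.349, 2.92, 16.3 and 3.28 CPM in microglia. Klra17 stood at 62.5, 8.55, 7.68 and 18.4 CPM in the same myeloid cells, on 2 to 28 UMIs. In NK cells both genes were at most 0.722 CPM. The first library had 13 such myeloid cells.

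Ligands of the receptors were given for microglia and for neural or tumour cells, without a test. H2-T23, which encodes the ligand of CD94 and NKG2 chains, stood at 319, 107, 478 and 377 CPM in microglia and at 16.4, 16.3, 98.8 and 54.9 CPM in neural or tumour cells, of which the libraries labelled vehicle IgG 1 and mavrilimumab 1 had 17 and 6. Clec2d, the ligand of the Klrb1b product, stood at 87.6, 21.1, 98.8 and 64.5 CPM in microglia and at 6.57 to 12.4 CPM in neural or tumour cells. Free Clec2d RNA stood at 106, 40.0, 388 and 128 CPM, above both groups of cells in every library, so expression by these cells cannot be read from these levels. H2-D1, a ligand of Ly49 receptors, stood at 2394, 852, 3702 and 2902 CPM in microglia and at 164, 265, 531 and 466 CPM in neural or tumour cells. These MHC class I and Clec2 ligands were higher in microglia than in neural or tumour cells in 4 of 4 libraries. Free H2-T23 RNA stood at 117, 60.5, 540 and 265 CPM, above microglia in the library labelled mavrilimumab 1. Free H2-D1 RNA stood at 801, 474, 2767 and 1666 CPM. In neural or tumour cells both genes were below their free RNA in every library, and its part in these levels was not tested. Cdh2, a cadherin bound by the Klrg1 product, stood at 32.9, 272, 185 and 196 CPM in neural or tumour cells and at 0.116, 174, 2.33 and 11.2 CPM in microglia, where the library labelled vehicle IgG 2 also carried neural transcripts in its other cells. The NKG2D ligand Ulbp1 stood at 0, 20.4, 0 and 7.48 CPM in neural or tumour cells and H60b at 0, 15.9, 0 and 10.5 CPM. The zeros come from the libraries with 17 and 6 such cells. Free Ulbp1 RNA was above the cell level in every library, at 31.4, 29.3, 36.9 and 23.7 CPM. Free H60b stood at 0.240, 8.00, 0.439 and 4.72 CPM.

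Of 14 ligand genes listed, 10 were tested between NK and CD8 T cells and 1 passed, H2-T23, which was lower in NK cells (−0.37 ± 0.11 on the log2 scale, edgeR FDR 0.0458), where 7.56% of all genes were lower. Between other lymphoid groups, Cdh1, a cadherin bound by the Klrg1 product, was higher in CD8 than in CD4 T cells (4.37 ± 0.19 on the log2 scale, edgeR FDR 2.64e-06), lower in gamma-delta than in CD8 T cells (−1.56 ± 0.34, edgeR FDR 0.0171) and higher in NK cells than in ILC (3.65 ± 0.24, edgeR FDR 0.000128). Clec2i, an NKR-P1 ligand gene, was called in the same 3 comparisons (0.48 ± 0.11, −0.64 ± 0.12 and 2.91 ± 0.42), and B2m (0.38 ± 0.10) and Ulbp1 (1.09 ± 0.22) were higher in CD8 than in CD4 T cells. In all, 4 of 9 ligand genes tested were higher in CD8 than in CD4 T cells, where 6.6% of all genes were, 2 of 9 were lower in gamma-delta than in CD8 T cells, where 8.94% were, and 2 of 10 were higher in NK cells than in ILC, where 3.99% were.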
